A study of Mus musculus with 32 samples.

Results

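Malat1 (ENSMUSG00000092341) is a long noncoding RNA of the cell nucleus, transcribed in mouse from the minus strand of chromosome 19, chr19:5795690-5802672 in the mm10 build, a span of 6983 nt without introns in its main form. Its contacts with chromatin were taken as every listed interaction whose RNA tag was assigned to this gene, in all 15 RADICL-seq libraries of the series. Malat1 is 1 of 17784 transcripts with a listed interaction, and its interactions numbered from 3990 to 292296 per library. RADICL-seq ligates RNA to DNA that lies close to it in fixed nuclei, so each interaction is an RNA tag joined to a DNA tag. The listed interactions belong to pairs of 1 transcript with 1 DNA bin of 25 kb that the authors called significant on the pooled replicates of a group, so the replicates of a group share 1 list of pairs and their spread is smaller than that of libraries called one by one. A bin or gene that is not listed for Malat1 was below that threshold and may still have been contacted.

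The mESC libraries came from R08 mouse embryonic stem cells grown without feeders, and the mOPC libraries from Oli-neu, a mouse oligodendrocyte progenitor line. Each cell type is thus represented by 1 cultured line, without treatment unless stated. The mESC 1FA group (3 libraries) was fixed with 1% formaldehyde and the mESC 2FA group (3 libraries) with 2% formaldehyde. The mESC ActD group (2 libraries) received actinomycin D, an inhibitor of transcription, for 4 hours at 5 µg per ml and was then fixed. The mOPC 1FA group (3 libraries) was fixed with 1% formaldehyde. In the mESC NPM and mOPC NPM groups (2 libraries each) proteins were removed by digestion and the crosslinks undone ahead of the ligation of RNA, a protocol that the study calls non-protein-mediated. Replicates were batches of cells of different passage.

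Listed interactions numbered from 251802 to 2832717 per library. These are significant interactions and not sequencing depth, and p-values rest on the spread among 2 or 3 libraries. As RNA, the 23 mESC markers summed to between 9716 and 10054 ppm (interactions per 1000000 listed interactions of the library) in mESC 1FA and to between 367 and 430 in mOPC 1FA, and the 21 mOPC markers to between 430 and 466 in mESC 1FA and to between 9765 and 10661 in mOPC 1FA. Of 5 neuron markers 4 were listed in mESC 1FA, with a sum of 320 to 362 ppm, and 1 in mOPC 1FA, with 353 to 399 ppm. Of 4 astrocyte markers 2 were listed in each, with 91.8 to 136 and 37.5 to 52.5 ppm. Of 5 fibroblast markers 2 were listed in mESC 1FA, with 2.12 to 4.12 ppm, and of 4 endoderm markers 2, with 48.0 to 187 ppm, while both lists were at 0 in mOPC 1FA.

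Malat1 is retained in the nucleus and is enriched at nuclear speckles, bodies rich in splicing factors that lie near active genes. Earlier mapping methods found it over the bodies of transcribed genes on many chromosomes. Its neighbour Neat1, transcribed nearby on the same chromosome, is the scaffold of paraspeckles. The 3′ end of the Malat1 precursor is cut by RNase P, which releases a small tRNA-like RNA, and a genomically encoded A-rich tract then forms part of the end of the mature RNA.

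The RNA tags were concentrated at a few points of the transcript, and the 27 nt centred on 6 of the most used are shown. Many of the windows called in the comparisons along the transcript hold none of these points. Positions are counted from 1 at the annotated 5′ end, sequences come from the RefSeq mm10 genome and are written 5′ to 3′ on the Malat1 strand, and the capital marks the base on which the tag centre fell. In order from the 5′ end, the first 3 sequences lie at chr19:5802364-5802390, chr19:5800737-5800763 and chr19:5800043-5800069. The others lie at chr19:5799226-5799252, chr19:5796810-5796836 and chr19:5796173-5796199.
Malat1_296: agagcagtttaggAgattgtaaaggga
Malat1_1923: gcaagttgtctttAaccgctcagaggg
Malat1_2617: cgtgatttaaaatAtttcattaaaggg
Malat1_3434: gaaaaaataatgtCatgtctccatggg
Malat1_5850: aggcactgaaggcTtaatgtaggacag
Malat1_6487: agcaagcctttgtAggaagttgttggg
Each point was chosen as one of the 5 most used in at least 1 group, so its shares are a description of that choice. Tag centres within 10 nt of positions 1923, 3434 and 5850 took a larger share in each of the 11 libraries made with proteins in place than in any of the 4 NPM libraries, although 5850 was also among the 5 most used points in mESC NPM. Position 296 took a larger share in each NPM library than in any other. Position 6487 was among the 5 most used in both NPM groups, but there it held 1.64% to 2.64% of tags, overlapping the 1.53% to 1.77% of mOPC 1FA. Position 2617 was chosen in mOPC 1FA (2.53% to 4.14%), and position 2619 beside it was among the 5 most used in both NPM groups (within 10 nt of 2617 these held 2.05% to 2.22%). The 6 stretches ranged from 25.9% to 51.9% GC, against 42.5% over the whole transcript.

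To ask how much of the listed contact belonged to Malat1 in each cell type and condition, Malat1 interactions were expressed in ppm of the listed interactions. The mESC 1FA libraries held 25278, 16333 and 13461 ppm, and the mOPC 1FA libraries 132215, 122491 and 108162. Every mOPC library lay above every mESC library, and Malat1 was the most listed transcript in each mOPC 1FA library. The difference was 2.77 on the log2 scale (SE 0.20, adjusted p = 4.9e-09, limma over all 15 libraries, Benjamini-Hochberg over 9763 transcripts), in a comparison in which 78.2% of transcripts were called and the median transcript was at −0.71. Whether a cell holds more Malat1 RNA, or the Malat1 present is ligated more often, cannot be told apart in such libraries, and in bulk cultures neither can the number of cells and the RNA per cell.

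With 2% formaldehyde Malat1 fell to 8739, 7125 and 6801 ppm, below every mESC 1FA library. The log2 difference was −1.24 (SE 0.20, adjusted p = 0.0021, limma), while 1.71% of transcripts were called between these groups. After actinomycin D the level was 14865 and 15846 ppm, inside the range of mESC 1FA, with a difference of −0.21 (SE 0.23, adjusted p = 0.46), where 59.1% of transcripts were called. The mESC NPM libraries held 16129 and 13404 ppm, the second just below the lowest mESC 1FA library, with a difference of −0.27 (adjusted p = 0.35, 51.1% of transcripts called), which median-ratio scaling moved to −0.70 (adjusted p = 0.034, limma). The mOPC NPM libraries held 43487 and 70969 ppm, both below every mOPC 1FA library. That difference was −1.12 (adjusted p = 0.00067, limma), with 61.1% of transcripts called and a median transcript higher by 0.78. Between the NPM groups Malat1 was higher in mOPC by 1.92 (adjusted p = 7.2e-06, 62.2% of transcripts called). The NPM difference in mOPC minus that in mESC was −0.85 (SE 0.32), which did not pass the threshold (adjusted p = 0.0595, limma, 30.3% of transcripts called). It was −1.11 without mESC 1FA replicate 1 (adjusted p = 0.0062) and −1.20 without mOPC NPM replicate 2 (adjusted p = 0.017).

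The direction of the NPM differences turned when every RNA's contacts inside its own gene were left out. Malat1 was then higher in mOPC NPM than in mOPC 1FA by 1.56 (adjusted p = 3.8e-05, limma) and higher in mESC NPM than in mESC 1FA by 0.78 (adjusted p = 0.0063), in fits in which the median transcript was at −4.57 and −4.70. The ActD difference became 0.36 (adjusted p = 0.18), and the difference of NPM effects became 0.78 (adjusted p = 0.042). The 2FA difference was then −1.19 and the difference between mOPC 1FA and mESC 1FA 2.84.

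In order of level, mOPC 1FA stood first and mOPC NPM second, followed by mESC 1FA, mESC ActD, mESC NPM and mESC 2FA. Among neighbours, mOPC NPM lay above mESC 1FA by 1.65 (adjusted p = 1.06e-05, limma), and mESC NPM lay above mESC 2FA by 0.97 (adjusted p = 0.0027, limma). In the main fit the mESC 1FA, ActD and NPM groups did not differ from one another beyond their spread. There mESC NPM and mESC ActD were apart by −0.06 (adjusted p = 0.90, limma). The alternatives above called mESC NPM against mESC 1FA, lower with median-ratio scaling and higher without own-gene contacts.

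**Figure D1:**
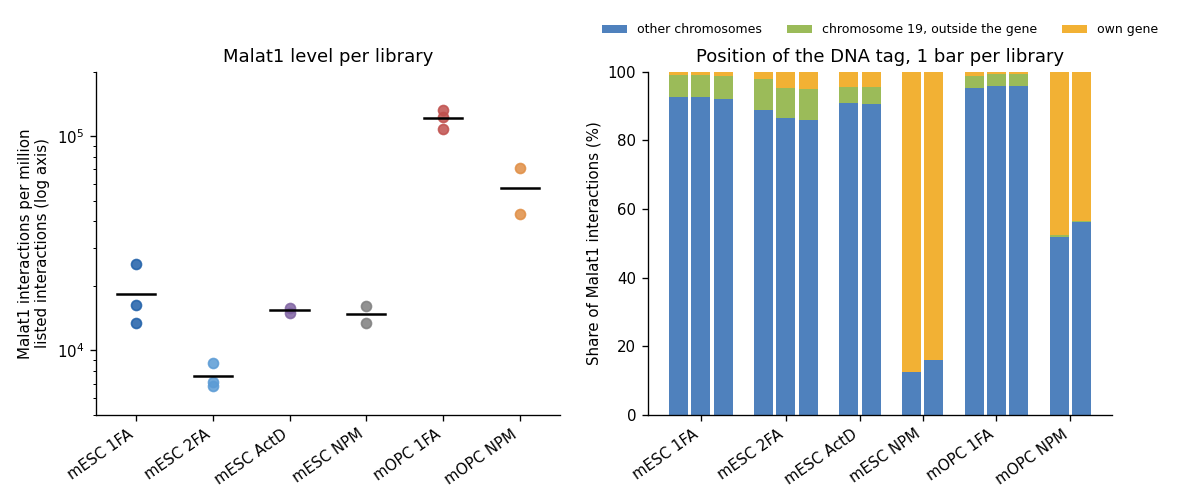
Left, Malat1 interactions in ppm of listed interactions on a log axis, 1 point per library in each of the 6 groups. Right, the share of each library's Malat1 interactions whose DNA tag lay on another chromosome, in the Malat1 gene, or elsewhere on chromosome 19, 1 bar per library. The mOPC 1FA points lie highest, at 108162 to 132215, and the bars of the NPM libraries hold most of the own-gene contacts.

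Where Malat1 was joined to DNA differed chiefly between protocols. Contacts on other chromosomes (trans) made up 92.6%, 92.5% and 92.0% of Malat1 interactions in mESC 1FA, and 95.2%, 95.9% and 95.7% in mOPC 1FA. In mESC NPM they made up 12.4% and 16.0%, and in mOPC NPM 51.8% and 56.1%. The NPM libraries were thus apart from the other 11, of which the lowest held 85.9%. The groups mESC 2FA (87.1% ± 1.64, SD, n = 3) and mESC ActD (90.7% ± 0.26, SD, n = 2) lay between.

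Trans contacts below the threshold are not counted in the trans share. Malat1 was listed in 48 trans bins in mESC NPM and in 5381 in mESC 1FA. Of listed Malat1 interactions, contacts with the Malat1 gene itself made up 85.8% ± 2.53 (n = 2) in mESC NPM. In mOPC NPM they made up 45.6% ± 2.88 (n = 2). In mESC 1FA that share was 1.18% ± 0.15 (n = 3), in mESC 2FA 4.06% ± 1.54 (n = 3), in mESC ActD 4.49% ± 0.18 (n = 2) and in mOPC 1FA 0.928% ± 0.397 (n = 3). Over both cell types the trans share was lower by 59.9 percentage points in NPM (exact permutation p = 0.02 within cell type, the smallest possible, adjusted p = 0.213). Over both protocols it was higher in mOPC by 21.5 points (exact permutation p = 0.0167, the smallest possible, adjusted p = 0.213). Over bins listed in both groups this direction between cell types turned, with the value given in the last section. With each listed bin counted once per library in place of each interaction, the trans share was higher in NPM by 1.88 points. No test of the 32 on shares passed after adjustment. The p-values are 2 times the smaller tail, so that 3 libraries against 3 cannot go below 0.1 and 3 against 2 cannot go below 0.2.

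Outside its gene but on chromosome 19, Malat1 contacts spread far. In mESC 1FA, 0.679% ± 0.141 of interactions (n = 3) lay 10 to 100 kb from the gene, 1.71% ± 0.044 lay at 100 kb to 1 Mb, 1.96% ± 0.134 at 1 to 10 Mb and 1.88% ± 0.075 beyond 10 Mb. In mOPC 1FA the nearer classes were smaller, with 0.154% ± 0.013 at 10 to 100 kb and 0.492% ± 0.014 at 100 kb to 1 Mb (n = 3). With 2% formaldehyde they were larger, with 1.49% ± 0.092 and 2.93% ± 0.156 (n = 3). In mESC NPM 5 interactions of 15173 lay at 10 to 100 kb and none from there on.

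As a share of all listed trans interactions, Malat1 took 42.4%, 22.4% and 22.8% in mESC 1FA and 94.4%, 93.3% and 91.6% in mOPC 1FA. It took 57.4% and 63.5% in mOPC NPM, 16.1% and 16.0% in mESC ActD, 15.2%, 10.8% and 12.8% in mESC 2FA. The mESC NPM libraries had the lowest values, 5.54% and 4.40%. In mOPC 1FA, 98.7% of the bins with any trans contact held Malat1, against 51.2% in mESC 1FA, 24.2% in mESC 2FA, 25.6% in mESC ActD, 93.2% in mOPC NPM and 51.1% in mESC NPM. The mESC 1FA libraries themselves were unequal, replicate 1 standing above the other two on this measure and in the level of Malat1.

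Along the transcript, tags were far from even. The 3 windows of 100 nt with most tags in mESC 1FA were 3401 to 3500 (5.23% ± 1.05 of tags, SD, n = 3), 5801 to 5900 (5.14% ± 0.80) and 1901 to 2000 (4.52% ± 0.17). In mOPC 1FA they were 5801 to 5900 (7.87% ± 0.46), 3401 to 3500 (6.14% ± 0.77) and 201 to 300 (4.44% ± 0.65). In mESC 2FA and mESC ActD the windows at 3401 to 3500 and 5801 to 5900 were again among the top 3. In mESC NPM the top windows were 201 to 300 (5.15% ± 2.04, n = 2), 1301 to 1400 (5.02% ± 1.17) and 2101 to 2200 (4.32% ± 0.84), and in mOPC NPM 6401 to 6500 (4.28% ± 0.48), 201 to 300 (3.84% ± 0.05) and 2601 to 2700 (3.21% ± 0.20).

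The peak at position 5850 (tag centres within 10 nt) held 5.16%, 3.20% and 3.87% of tags in mESC 1FA and 7.27%, 6.48% and 6.15% in mOPC 1FA. In mESC NPM it held 1.18% and 1.18%, and in mOPC NPM 1.21% and 0.818%. Each NPM library was thus below every library made with proteins in place, the lowest of which held 3.03%. Position 3434, chosen in groups with proteins in place, held 3.53% to 7.26% of tags in those 11 libraries and 0.441% to 0.652% in the 4 NPM libraries. In mOPC 1FA 5.98% of trans contacts and 0.755% of own-gene contacts carried a tag there, and in mESC 1FA 5.10% and 1.82%. At position 1923 own-gene contacts had the larger share, 5.23% against 3.44% in mOPC 1FA and 5.98% against 4.26% in mESC 1FA. Position 296, chosen in the NPM groups, held 0.276% to 1.04% in the 11 libraries and 1.65% to 3.17% in the 4 NPM libraries. Since the points were chosen for their high use in these groups, these shares are a description, and the test is that of all windows.

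Of 67 windows, 8 were called between mOPC 1FA and mESC 1FA, which is 11.9% (limma, Benjamini-Hochberg over the windows). The window at 2601 to 2700, which contains position 2617, rose by 1.20 on the log2 scale of the tag share (SE 0.25, adjusted p = 0.021), from 1.57% to 3.60%. The window at 5801 to 5900 rose by 0.62 (adjusted p = 0.021), the window at 201 to 300 by 0.83 and that at 2301 to 2400 by 0.39. The windows at 5401 to 5500, 1201 to 1300, 5101 to 5200 and 1101 to 1200 fell by 0.99, 0.98, 0.93 and 0.87. Each of these libraries mattered to the count, which was 28 without mESC 1FA replicate 1, 4 without mOPC 1FA replicate 3 and 0 without any one of the other 4.

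No window was called for 2% formaldehyde or for actinomycin D against mESC 1FA (0% of 67 in limma, 2 and 8 windows at an unadjusted p under 0.05), although without mESC 1FA replicate 1 the ActD count was 15. For NPM against 1FA, 27 windows were called in mESC (40.3%, 14 higher and 13 lower) and 29 in mOPC (43.3%, 20 higher and 9 lower). In mESC the largest rises were at 6601 to 6700 (2.84 on the log2 scale), 301 to 400 (2.17) and 1401 to 1500 (1.92). The first of these held few tags, going from 0.0476% to 0.341%. The largest falls were at 6001 to 6100 (−2.61), 3401 to 3500 (−2.51, from 5.16% to 0.905%) and 3301 to 3400 (−1.89). In mOPC the largest rises were at 6601 to 6700 (3.64, from 0.0466% to 0.580%), 5501 to 5600 (2.02) and 4201 to 4300 (1.87). The first of these windows holds position 6679, among the 5 most used points in mOPC NPM, inside a run of 12 A at 6674 to 6685. The largest falls in mOPC were at 3401 to 3500 (−2.18, from 6.11% to 1.35%), 6001 to 6100 (−1.80) and 5801 to 5900 (−1.75, from 7.86% to 2.34%). The mESC count was 13 without mESC NPM replicate 1. The mOPC count was 49 without mOPC NPM replicate 2 and 10, 3 and 4 without mOPC 1FA replicates 1, 2 and 3, and the 2 mOPC NPM libraries had unlike profiles (r = 0.550 over 66 windows). Between the NPM groups 1 window was called (1.49%), at 1501 to 1600 (−1.65), with overlapping libraries, and none without mOPC NPM replicate 1 or either mESC NPM library.

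**Figure D2:**
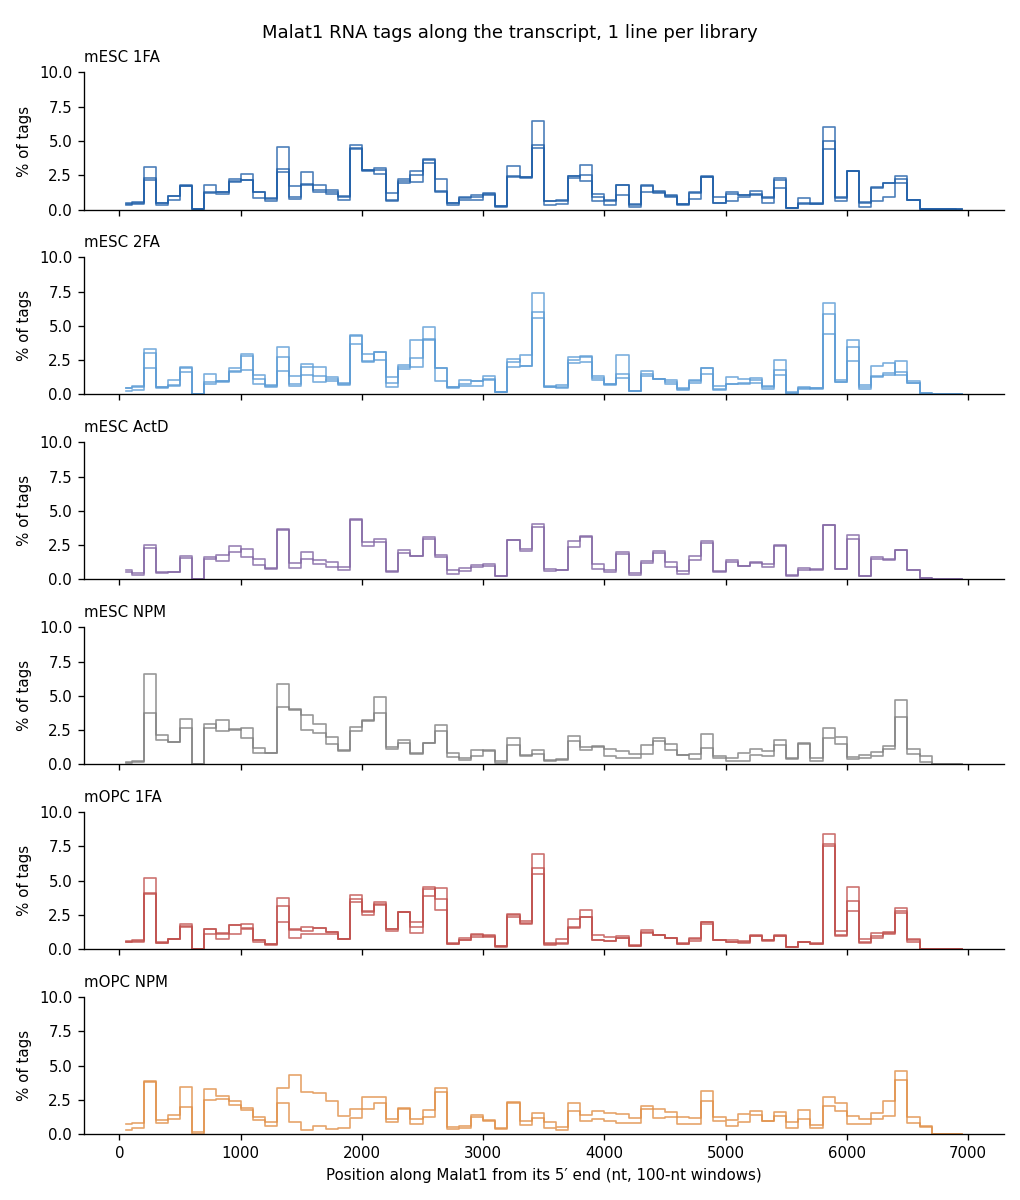
Share of Malat1 RNA tags in each 100-nt window from the 5′ end, 1 panel per group and 1 line per library. The peaks near 3434 and 5850 stand out in mESC 1FA, mESC 2FA, mESC ActD and mOPC 1FA and are low in both NPM groups.

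Between libraries of different groups with proteins in place, profiles had median correlations of 0.876 to 0.953 over 66 windows. Between these groups and the NPM groups they were 0.497 to 0.640. The mOPC NPM libraries correlated with each other at 0.550, inside that lower range, and the mESC NPM libraries at 0.921. The points share the transcript and its sequence. The NPM tags were also more spread: 50% of tags lay on 373 and 443 positions in the mESC NPM libraries and on 484 and 747 in the mOPC NPM libraries, against 149 ± 19.4 in mESC 1FA and 136 ± 4.16 in mOPC 1FA (SD, n = 3 each). The number of positions depends on how many tags there are, and mOPC 1FA had the most tags of any group.

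The 3′ end of the annotated span carried almost no tags. The longest run of A in the span, 12 nt, lies at positions 6674 to 6685, and tags centred past it made up 0% to 0.0818% of a library, although 4.27% of the span lies there. Tags centred from the midpoint of the span onwards made up 39.8% ± 2.58 in mESC 1FA, 40.5% ± 2.48 in mESC 2FA, 43.6% ± 0.94 in mESC ActD and 38.7% ± 2.80 in mOPC 1FA. In the NPM groups the 2 libraries lay far apart, at 29.4% and 38.3% in mESC and 50.8% and 37.2% in mOPC.

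Malat1 was listed in trans in 5381 bins in mESC 1FA, 2358 in mESC 2FA, 729 in mESC ActD, 48 in mESC NPM, 13251 in mOPC 1FA and 1546 in mOPC NPM. That is 5.19% of the 25-kb bins off chromosome 19 in mESC 1FA and 12.8% in mOPC 1FA. The contacts were spread thinly. The median listed bin held 23 interactions in mESC 1FA, pooled over libraries, against 19 in the weakest one listed, and 48 against 35 in mOPC 1FA. In mESC 1FA 96.9% of bins were under 2 times the weakest, and in mOPC 1FA 85.1%. Levels of bins were compared only where both groups list them.

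Listed bins were rich in genes and in G and C. In mESC 1FA 91.3% and in mOPC 1FA 87.3% held an annotated gene, against 49.8% of all bins, and their median GC was 47.7% and 45.3% against 41.0%. Among bins ranked by GC into 5 equal classes, the share listed rose in each step from 0.362% in the lowest to 18.7% in the highest in mESC 1FA, and from 2.95% to 33.0% in mOPC 1FA. In mOPC NPM the median GC was 43.8% and 63.7% of bins held a gene. Of the mESC 1FA bins 62.9% were also listed in mOPC 1FA, where they made up 25.5% of the list, and 71.0% of mOPC NPM bins were listed in mOPC 1FA, where they made up 8.28%.

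By chromosome, the clearest contrasts were on chromosomes 5 and 8. Density is the share of trans contacts on a chromosome over its share of known bases, so that 1 is an even spread. Chromosome 8 had a density of 2.71, 2.81 and 2.92 in mESC 1FA and of 0.497, 0.477 and 0.499 in mOPC 1FA. The first 45 Mb of chromosome 5 had 0.542, 0.597 and 0.512 in mESC 1FA and 5.35, 5.36 and 5.19 in mOPC 1FA. In mOPC NPM this segment held 50.1% and 49.9% of all Malat1 trans contacts, against 8.58%, 8.59% and 8.33% in mOPC 1FA. All other transcripts together showed the same directions, with 2.03 against 0.320 on chromosome 8 and 0.538 against 17.7 on the segment of chromosome 5 (means of mESC 1FA and mOPC 1FA). DNA copy number of the lines was not measured here and its part in these densities was not tested. Chromosome 11 was dense in both (3.24 and 2.65), and chromosome 15 more so in mOPC 1FA (1.36 and 2.43). The X chromosome had few listed contacts (0.0235 and 0.0259), and contacts below the threshold are not counted. The study describes R08 as a male line, and the part of X copy number was not tested.

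Single bins with many Malat1 contacts were few, and the bins of the Malat1 gene itself are left out of the ranks given here. The bin chr17:39825001-39850000 holds Gm26917, Gm42418 and CT010467.1, which carry ribosomal RNA sequence, and it ranked first in mESC 1FA (633 interactions), mESC 2FA (326), mESC ActD (138), mESC NPM (850) and mOPC NPM (732). In mESC 1FA 1036 other transcripts were listed there in trans, against a median of 1 over the Malat1 bins, so that bin is not particular to Malat1. It took 27.8% and 46.6% of the trans contacts in the mESC NPM libraries. In mESC 1FA the next 3 bins lie near the Malat1 gene, the Neat1 bin chr19:5825001-5850000 (244), the bin of Frmd8 (143) and a bin of Slc25a45 and Dpf2 (139). The fifth and the sixth were bins of Sfi1, a centrosome gene on chromosome 11 (119 in the bin at chr11:3150001-3175000, where 50 other transcripts were listed in trans). In mOPC 1FA the first was chr5:23425001-23450000 in Kmt2e, with 495 interactions, where 20 other transcripts were listed.

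The Malat1 gene itself is left out of the ranks of genes given here, in total and per kb. The genes with most Malat1 contacts in mESC 1FA were then Gm20388 (2961 interactions), Gm26917 (458), Gse1 (332), Gm26904 (293) and Gm20417 (271). They were followed by Sfi1 (264), Macf1 (192), Zfp423 (187), Ankrd11 (177) and Neat1 (176). Gm20388 is annotated over 4435 kb of chromosome 8 and overlaps many other genes, among them Ankrd11, a chromatin regulator, and Gm20417 overlaps Malat1 itself. Per kb of gene, Gm26917 led with 138, and among protein-coding genes and long noncoding genes off the ribosomal bin, Neat1 (8.47), Frmd8 (5.90), a neighbour of Malat1, and Sfi1 (4.28) were among the highest. In mOPC 1FA Lhfpl3, a gene expressed in oligodendrocyte progenitors, led outside the Malat1 gene itself with 5327 interactions. It was followed by Gm20388 (3493), Bre (2206), Srpk2 (1709), Pvt1 (1237), Asap1 (1162), Cntn1 (1106), Kmt2e (1030), Gm43809 (1030) and Gm20417 (953). Of these, Lhfpl3, Bre, Srpk2, Kmt2e and Gm43809 lie in the first 45 Mb of chromosome 5. Kmt2e encodes a chromatin-associated protein of the MLL family, Srpk2 a kinase of splicing factors, and Cntn1 a neural adhesion protein.

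Per kb of gene, and again without the Malat1 gene itself, Gm26917 was first in mOPC 1FA with 104. Zfp513 (28.3), Snx17 (24.8), Slc5a6 (21.6) and Atraid (21.4), all on chromosome 5, were the leading protein-coding genes. In mOPC NPM the leading genes outside the Malat1 gene itself were Gm20417 (7415 interactions) and Gm37376 (2860), which overlap it. They were followed by Lhfpl3 (1599), Bre (1345), Sfi1 (859), Plb1 (792), Pvt1 (675), Tmem117 (598) and Srpk2 (586). In mESC NPM only 95 genes were listed, led outside the Malat1 gene itself by Gm20417 (1079), Gm37376 (672) and CT010467.1 (483). Contacts with Gm20417, Gm37376 and Gm27694 cannot be told from contacts with the Malat1 gene.

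Of 2048 genes listed in both groups, 1046 differed between mOPC 1FA and mESC 1FA in the part of Malat1 interactions they took, given from here on in ppm of all Malat1 interactions of the library (limma, Benjamini-Hochberg adjusted p under 0.05), which is 51.1%. Of these 235 were higher and 811 lower in mOPC, and the median gene was at −0.58 on the log2 scale. Scaled by median ratio, which sets that median near 0, 460 were higher and 351 lower (39.6% in all), so the split depended on the scaling. Whole-gene values also depend on how many bins of a gene reached the list in each group. Values over shared bins are given with median-ratio scaling from here on. Over tags in shared bins 64 of 1414 genes were called (4.53%), 38 higher and 26 lower in mOPC. Of the 38, 30 lie in the first 45 Mb of chromosome 5, and of the 26, 8 lie on chromosome 8, 7 on chromosome 19 and 3 on chromosome 17. Of the 1414 genes tested, 52 (3.68%) lie in that segment of chromosome 5, 71 (5.02%) on chromosome 8, 85 (6.01%) on chromosome 19 and 83 (5.87%) on chromosome 17.

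Genes with more of the Malat1 contacts in mOPC included Kmt2e, with 1451, 1301 and 1249 ppm in mOPC 1FA and 104, 100 and 78.7 in mESC 1FA. The groups were far apart, by 3.78 on the log2 scale (SE 0.19, adjusted p = 5.7e-07, limma) and by 2.89 over shared bins (adjusted p = 3.2e-06). Tcf12, a helix-loop-helix transcription factor, had 879, 748 and 842 ppm against 74.1, 50.2 and 105, a rise of 3.43 (adjusted p = 8.3e-06). Tcf4, its relative, had 534, 469 and 601 against 14.8, 75.2 and 26.2 (rise of 3.94, adjusted p = 6.8e-05). Prkce, a protein kinase C, had 496, 511 and 611 against 29.7, 75.2 and 0 (rise of 4.73, adjusted p = 0.0013, limma). Tcf4 and Prkce had few contacts in mESC 1FA, so the sizes of their rises rest on that floor and on the prior count. Kmt2e, Tcf12, Tcf4 and Prkce each passed the filter on mean count through mOPC 1FA, where they were high. Their p-values are therefore not to be read as support. Without mESC 1FA replicate 2 the rise of Tcf4 was 4.56 and that of Prkce 5.81, and without mESC 1FA replicate 3 that of Prkce was 3.42. Tcf12, Tcf4 and Prkce had too few contacts in bins listed in both groups to be tested there.

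The other genes with the largest rises were Tbc1d16 (5.80), Lima1 (5.65), an actin regulator, Cuedc1 (5.62), Dscaml1 (4.32), a neural adhesion gene, Fam49b (3.65) and Syn3 (3.45), a synapsin. Tbc1d16, Lima1 and Cuedc1 were each listed in 1 of 3 mESC 1FA libraries with 1 interaction, so the size of their rises rests on that floor and on the prior count, and without that library the rises were 7.03, 6.90 and 6.85. Dscaml1 was listed at 14.8, 50.2 and 0 ppm in mESC 1FA, and its rise was 5.36 without mESC 1FA replicate 2 and 3.26 without replicate 3. That of Syn3 was 2.83 without mESC 1FA replicate 3. Over shared bins Syn3 differed by 1.46 (adjusted p = 0.12).

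Genes with a smaller part of the Malat1 contacts in mOPC included Gm20388 (4413, 4485 and 4833 ppm against 19914, 20688 and 20797). Its fall was 2.16 (SE 0.06, adjusted p = 3.3e-09, limma), and over shared bins it fell by 0.54 (adjusted p = 0.0056). Samd4b, an RNA-binding translational regulator, had 154, 85.2 and 78.6 against 1068, 903 and 997, a fall of 3.24 that over shared bins was −0.45 (adjusted p = 0.41). Prrc2b (−2.10) and Smg1 (−2.07), a kinase of nonsense-mediated decay, likewise missed the threshold over shared bins (−0.60, adjusted p = 0.17, and −0.51, adjusted p = 0.32). Ankrd11 fell by 3.10, Cnot1, the scaffold of the CCR4-NOT deadenylase, by 2.39 and Frmd8 by 2.40, and over shared bins by 0.88, 1.00 and 1.31 (adjusted p = 0.030, 0.0080 and 0.023). Gm42418, CT010467.1 and Gm26917 of the ribosomal bin fell by 3.00, 2.85 and 2.77, and over shared bins by 1.92, 1.76 and 1.68 (all called).

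**Figure D3:**
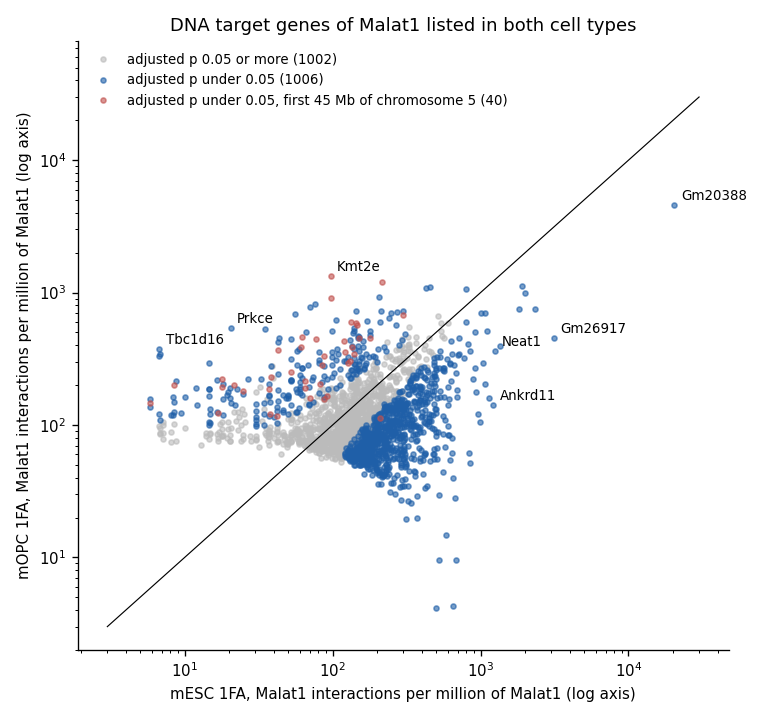
Malat1 interactions in ppm of all Malat1 interactions for each of the 2048 genes tested, mESC 1FA on the horizontal and mOPC 1FA on the vertical axis (both log), each point a mean over 3 libraries on the log scale, coloured by chromosome region. Of the 67 genes tested in the first 45 Mb of chromosome 5, 59 lie above the diagonal line of equality, and of the 104 tested on chromosome 8, 99 lie below it.

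Per bin, the comparison of cell types ran through the same scaling. Of 3485 bins listed in both groups 2685 were called (77%), 24 higher and 2661 lower in mOPC, around a median of −1.15. With median-ratio scaling 84 were called (2.41%), 57 higher, of which 27 were in the first 45 Mb of chromosome 5, and 27 lower, of which 10 were on chromosome 8 and 9 on chromosome 19. Of the bins tested 42 (1.21%) lie in that segment, 236 (6.77%) on chromosome 8 and 203 (5.82%) on chromosome 19.

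With 2% formaldehyde, 94 of 310 genes listed in both groups were called (30.3%, limma), 67 higher and 27 lower, around a median of 0.34, and with median-ratio scaling 30 were higher and 45 lower (24.2% in all). Leaving out mESC 1FA replicate 1, 2 or 3 gave 56, 57 or 53 calls. Over shared bins none of 143 was called (0%, 3 at an unadjusted p under 0.05). Neat1 took 2806, 3655 and 3274 ppm of Malat1 contacts in mESC 2FA, against 949, 1555 and 1311 at 1% formaldehyde, a rise of 1.36 (adjusted p = 0.00072). Frmd8 rose by 1.23, Nfix by 1.16, Sfi1 by 0.97, Cnot1 by 0.81 and Cacna1a, a calcium channel gene, by 0.75, a call that Cnot1 lost in 3 and Cacna1a in 5 of the 6 fits without 1 library. Gm20417 rose by 1.49. Zfp423 had 357, 276 and 409 ppm against 1068, 1354 and 1600 and fell by 1.90 (adjusted p = 0.00014), and Gm26668 fell by 1.77. Zfp423 passed the filter on mean count through mESC 1FA, where it was high, so its p-value is not to be read as support. Over shared bins with median-ratio scaling the differences of those that could be tested ran from −0.12 for Cnot1 to 0.55 for Gm20417.

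After actinomycin D, 108 of 152 genes were called (71.1%, limma), 107 of them higher, around a median of 1.39. With median-ratio scaling 14 genes were past the threshold (9.21%), 6 higher and 8 lower, and over shared bins with that scaling none of 46 (0%, 12 at an unadjusted p under 0.05). The ActD group lists 729 trans bins for Malat1 against 5381, and whether that sets the shift of whole genes was not tested. Sfi1 had 9960 and 13534 ppm against 1779, 1580 and 2124 (2.67, adjusted p = 0.00032), Ankrd11 5783 and 5263 against 1186, 1379 and 1101 (2.17), and the mechanosensitive channel gene Piezo1 3695 and 4010 against 638, 1103 and 839 (2.18). Relative to the median shift of 1.39 these 3 were higher, while Gse1 (1.12) and Gm20388 (0.59) were below it. The remaining genes named by the rule, Gm26917 (1.73), Gm20417 (1.67), CT010467.1 (1.47) and Gm42418 (1.43), lay just above it. Over shared bins these 4 were at −0.54, −0.58, −0.77 and −0.81 and Piezo1 at −0.072, so their direction turned, and none of them passed the threshold (adjusted p from 0.119 to 0.834).

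For NPM against 1FA in mOPC, 392 of 587 genes were called (66.8%, limma), 323 higher and 69 lower, around a median of 0.83, and with median-ratio scaling 170 were higher and 181 lower (59.8% in all). Over shared bins 111 of 460 were called (24.1%), 51 higher and 60 lower. Among the largest rises, Gm37376 (6.04), Gm20417 (5.59) and Gm27694 (5.21) overlap Malat1. Clnk, an adaptor gene on chromosome 5, had 2150 and 2344 ppm in mOPC NPM and 13.7, 7.75 and 0 in mOPC 1FA (8.17, adjusted p = 2.0e-06). The size of that rise rests on so few contacts in mOPC 1FA and on the prior count, and it was 7.40 without mOPC 1FA replicate 3. Clnk passed the filter on mean count through mOPC NPM, where it was high, so its p-value is not to be read as support. Stk32b (4.96), Hs3st1 (4.69), Gm21798 (4.37), AC160116.1 (3.37), Lrrc6 (3.24) and Adcy8 (3.22), an adenylate cyclase, also rose. Over shared bins Stk32b rose by 1.51, AC160116.1 by 1.77, Gm21798 by 0.95, Lrrc6 by 0.74 and Adcy8 by 0.60, and Hs3st1 was at 0.64 (adjusted p = 0.11).

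Among the genes with a smaller part of the Malat1 contacts in mOPC NPM, Fgfr2, a fibroblast growth factor receptor, had 235 and 213 ppm against 1057, 1123 and 1124, a fall of 2.28 (SE 0.13, adjusted p = 2.2e-07, limma). Myt1, a zinc finger factor of the oligodendrocyte lineage, had 54.2 and 71.0 against 376, 321 and 347 (a fall of 2.43). Soga1 (−4.74), the histone methyltransferase gene Nsd2 (−3.29), the kinesin gene Kif21b (−3.16), Sufu (−3.00), a negative regulator of hedgehog signalling, and Frs2 (−2.31) also fell. Soga1 had 0 and 35.5 ppm and Frs2 18.1 and 71.0 ppm in mOPC NPM, and the sizes of both falls depended on which of these libraries was kept. Without mOPC NPM replicate 1 they were at −2.86 and −1.40, and without replicate 2 at −6.82 and −3.24. Chst11 (−2.48), Cdc42bpa (−2.20) and Kalrn (−1.88) fell too, but over shared bins with median-ratio scaling they were at 0.15, −0.27 and 0.36. The others named had too few contacts in shared bins to be tested. For mESC NPM genes were not tested, since fewer than 50 genes and bins were listed in both groups.

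Genes were also taken by class. Of all protein-coding genes 27.9% were Malat1 targets in mESC 1FA and 44.8% in mOPC 1FA, where more interactions are listed, and the counts of targets below are to be read against these shares. Of 21 mOPC markers, 17 were targets in mOPC 1FA and 6 in mESC 1FA. Together they took 8378, 8564 and 9084 ppm of Malat1 contacts in mOPC 1FA and 964, 802 and 892 ppm in mESC 1FA. Lhfpl3, in the first 45 Mb of chromosome 5, held most of these in mOPC 1FA, with 1967, 1776 and 1584 interactions. Ptprz1, a phosphatase of progenitors, had 150, 109 and 75 interactions, and was listed at 0 in mESC 1FA. Cspg4, which encodes the NG2 proteoglycan, had 58, 56 and 49 interactions against 6, 2 and 1. Such counts of single genes are not scaled to the Malat1 total of the library. That total was 216210 to 292296 in mOPC 1FA and 38130 to 67441 in mESC 1FA. Of 23 mESC markers 15 were targets in mESC 1FA, with 2372, 2282 and 2203 ppm in all, and 3 in mOPC 1FA, with 301, 329 and 333 ppm. The pluripotency gene Esrrb had 38, 23 and 23 interactions in mESC 1FA and was listed at 0 in mOPC 1FA. Tet1, an oxidase of methylated DNA, had 86, 79 and 67 interactions in mOPC 1FA and 22, 19 and 10 in mESC 1FA. As a part of Malat1 contacts these were 294, 306 and 310 ppm against 326, 476 and 262 ppm, and the groups overlapped. Of the 6 mOPC markers that could be tested 1 was called higher and 1 lower in mOPC 1FA, where 11.5% and 39.6% of all genes tested were, and Tet1, the 1 mESC marker tested, was not called.

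Neighbours of Malat1 within its part of chromosome 19 were listed in full, 19 of 19 in mESC 1FA and in mOPC 1FA. Of the 12 tested all were lower in mOPC 1FA (39.6% of all genes were), with a median of −1.97 against −0.58 over all genes, and of the 10 tested with 2% formaldehyde 6 were higher (21.6% of all genes were) and none lower, with a median of 1.09 against 0.34. Of 25 splicing and speckle genes, 20 were targets in mESC 1FA and 22 in mOPC 1FA. Of the 12 tested 6 were lower in mOPC and none higher, with a median of −0.66, near the median of all genes. Hnrnpu, a nuclear matrix RNA-binding protein gene, had 267, 100 and 262 ppm of Malat1 contacts in mESC 1FA and 318, 240 and 245 ppm in mOPC 1FA, and Rbm39, a splicing cofactor gene, had 386, 201 and 288 ppm against 339, 318 and 213 ppm. The groups overlapped for both genes. Of 12 genes of endoplasmic reticulum chaperones 5 (41.7%) and 11 (91.7%) were targets in mESC 1FA and mOPC 1FA, where all protein-coding genes went from 27.9% to 44.8%. Their summed contacts were 297, 426 and 288 ppm against 428, 380 and 430 ppm, and the groups overlapped. Of 69 histone cluster genes 0 and 25 (36.2%) were targets, of 20 housekeeping genes 18 and 17, and of 1968 olfactory and vomeronasal receptor genes 3 (0.152%) and 11 (0.559%). Of the markers of other cell types those that were targets numbered 2 and 2 of 5 for neurons, 1 and 3 of 4 for astrocytes, 2 and 1 of 5 for fibroblasts and 0 and 0 of 4 for endoderm.

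Protein-coding genes whose own RNA was more listed were contacted more by Malat1. With genes split by their own listed RNA per kb into none and 4 equal classes, Malat1 contacts in ppm per Mb of gene rose from 101 ± 6.3 in the first to 179 ± 1.7, 548 ± 13, 898 ± 1.7 and 1677 ± 19 in mESC 1FA (SD, n = 3). In mOPC 1FA they rose from 130 to 346, 546, 859 and 1602. The share of genes with any listed Malat1 contact rose from 6.21% to 61.1% in mESC 1FA and from 18.7% to 90.5% in mOPC 1FA. From the first class to the last, values went from 114 to 3027 after actinomycin D, from 131 to 1455 with 2% formaldehyde and from 17.3 to 1008 in mOPC NPM. The own RNA and the Malat1 contacts come from the same libraries, and the classes are a description.

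**Figure D4:**
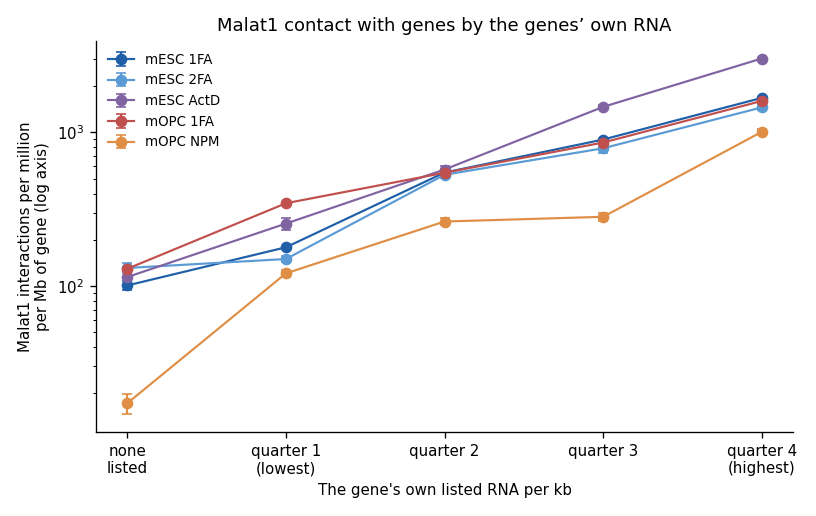
Malat1 contacts in ppm of Malat1 interactions per Mb of protein-coding gene (log axis), for genes without listed RNA of their own and for 4 equal classes of own listed RNA per kb. Points are means over the libraries of a group and bars are SD, and in mESC 1FA the mean rises from 101 to 1677.

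Within genes lying wholly in listed bins, DNA tags of Malat1 were denser around the start of the gene than in the body in mESC 1FA and mOPC 1FA. Relative to the whole span with 5 kb on each side, density in the first 2 kb was 1.16 ± 0.05 in mESC 1FA (1199 genes, SD over 3 libraries) and 1.48 ± 0.12 in mOPC 1FA (2809 genes). The 2 kb upstream had 1.18 ± 0.08 and 1.45 ± 0.11, and the body 0.951 ± 0.018 and 0.941 ± 0.017. The last 2 kb had 1.08 ± 0.03 in mESC 1FA and 0.961 ± 0.024 in mOPC 1FA, and the 2 kb downstream 1.11 ± 0.01 and 1.02 ± 0.01. In mOPC NPM the first 2 kb were at 1.05 ± 0.10 (124 genes, n = 2), the body at 1.01 and the last 2 kb at 1.08 ± 0.04. Neat1 contacts on the same mOPC 1FA genes had 1.51 ± 0.03 in the first 2 kb and 1.39 ± 0.03 upstream, so the pattern was not particular to Malat1.

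Other RNAs were set beside Malat1. Over the 15 libraries, the transcripts whose log2 level correlated most with that of Malat1, of 3425 with a mean of at least 100 interactions, were Nrxn2 (r = 0.961), Cyth1 (0.956), 2610035D17Rik (0.954), Zfyve28 (0.952) and Rasa3 (0.951). Each of these was higher in mOPC 1FA than in mESC 1FA in replicate 1, as 399 against 68.5 ppm of listed interactions for Nrxn2, and the points share the difference between lines. By target bins, Gm22973, a small RNA listed in mESC, shared 4091 bins with Malat1 in mESC 1FA. That was 76.0% of the Malat1 list and 47.2% of the Gm22973 list off chromosome 19. In mOPC 1FA Neat1 shared 1421 bins, 96.9% of its own list and 10.7% of that of Malat1. Rn7sk shared 314, 99.7% of its own off chromosome 19 and 2.37% of that of Malat1. Of all bins with any trans contact, 51.2% in mESC 1FA and 98.7% in mOPC 1FA held Malat1. Bins with any trans contact include those of Malat1 itself, so these shares cannot show whether an overlap is particular to these RNAs. Of the 17 nuclear noncoding RNAs of a fixed list that could be tested as RNA, 3 rose in mOPC 1FA against mESC 1FA and 11 fell, where 24.5% and 53.7% of all transcripts rose and fell. The 3 were Rn7sk, Neat1 and Pvt1, with rises of 5.30, 3.90 and 1.04 beside the 2.77 of Malat1.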

How the data were processed

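RADICL-seq was analysed in 15 libraries. The 32 series samples are entries for RNA and DNA tags of each, and 2 of them are a second sequencing run of mESC NPM replicate 1. Whether the table of that library includes this run is not given in the sources used here. Per the labels and the study's methods, the authors trimmed with TagDust2, removed duplicates with FastUniq and ribosomal reads with RNAdust, mapped with BWA 0.7.15-r1140 to mm10 at a mapping quality of 37, annotated with GENCODE and kept significant pairs of transcript and 25-kb bin on pooled replicates. The deposited files give each interaction with an adjusted p-value of its pair, all under 0.05. Per the methods, the authors then dropped significant contacts in blacklisted mm10 regions.

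Each distinct interaction was counted once for this report, and since these counts follow a threshold on pooled data they were tested as log2 shares (prior count 0.5, mean of at least 10) in limma 3.58.1 (R 4.3.3), not with a count model. Tables and figures used Python 3.11.15, pandas 2.3.3, numpy 2.4.6 and matplotlib 3.10.9. Shares of interactions were compared by two-sided exact permutation tests (2 times the smaller tail). The scripts were tested on simulated data. Named genes were the 10 largest called rises and falls per comparison with a mean of at least 30 interactions and groups that do not overlap, and the leading genes per group, in total and per kb. Named windows were the 3 with most tags and the 3 largest called changes each way, and of a gene list at most 4 members were named. Only part of the genes so chosen is described. Members, lists and tests were chosen with earlier results of these data known.

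Alternatives were median-ratio scaling, no filter, other features, a prior count of 2, 200-nt windows, exact copies, bins or positions counted once, contacts outside the own gene, the replicate block and each library left out. Equal replicate numbers deviated together for mESC 2FA and mESC 1FA (r = 0.352, 0.189 and 0.325 over 9727 transcripts). In the other comparisons r over transcripts ran from −0.115 to 0.206. Depth of sequencing is not given by these files, so the number of listed interactions and of libraries limits the precision.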

Additional observations from a re-analysis of the deposited data

Results flagged for a closer look

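The share of Malat1 DNA tags (own gene left out) that lay in an annotated gene moved in opposite directions in the 2 cell types. In mESC 1FA the libraries held 72.9%, 72.6% and 72.4%, and in mESC NPM 80.2% and 78.2%, a difference of 6.55 percentage points. In mOPC 1FA they held 73.0%, 73.1% and 72.1%, and in mOPC NPM 59.7% and 59.4%, a difference of −13.2 points. Every NPM library lay above the 1FA libraries in mESC and below them in mOPC, and the difference between the cell types was not tested. Without the bin of ribosomal RNA sequence on chromosome 17, which held 242 and 608 of the 873 and 1309 tags in the mESC NPM libraries, those libraries held 72.7% and 59.5% and the mESC difference was −6.38 points (exact permutation p = 0.6).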

How the results depend on the processing

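The levels of Malat1 RNA kept direction and side of the threshold in 21 of 28 alternative fits that leave no library out. Without contacts inside each RNA's own gene the ActD difference was 0.36, the mESC NPM difference 0.78, the mOPC NPM difference 1.56 and the difference of NPM effects 0.78. Median-ratio scaling gave −0.70 for mESC NPM and −1.22 for the difference of NPM effects. Without 1 library the ActD level difference ranged from −0.40 to 0.050 and the difference of NPM effects from −1.20 to −0.50. The cause of these and the following changes was not tested.

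With the replicate block the difference of NPM effects was −0.85 (adjusted p = 0.041, limma), the called windows were 20 for mOPC 1FA against mESC 1FA, 5 for mOPC NPM against mOPC 1FA and 0 between the NPM groups, and the 3′ share over both cell types in NPM was 1.03 points higher. No other direction, call or count changed past the limit under the block. For the comparison of mESC 2FA with mESC 1FA, where equal replicate numbers deviated together over transcripts, the block changed no call of these results. There r was 0.020, 0.024 and −0.057 for target bins and 0.696, 0.656 and −0.212 for RNA windows. For mESC NPM against mESC 1FA r was 0.436 and 0.347 for RNA windows and −0.0093 and −0.115 over transcripts. With 200-nt windows 0 were called between the NPM groups. Without 1 library, called windows ranged from 0 to 28 (mOPC 1FA against mESC 1FA), 0 to 15 (ActD), 13 to 39 (mESC NPM), 3 to 49 (mOPC NPM against mOPC 1FA) and 0 to 4 (between NPM groups).

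Called genes for mOPC 1FA against mESC 1FA were 2459 with genes listed in either group, 1876 with no filter and 64 over shared bins with median-ratio scaling. For 2FA they were 254 with no filter and 0 over shared bins with that scaling. For ActD they were 14 with median-ratio scaling, 285 with genes in either group, 631 with no filter, 39 over shared bins and 0 over shared bins with median-ratio scaling. For mOPC NPM they were 3258 with genes in either group, 111 over shared bins with median-ratio scaling and 256 without the first 45 Mb of chromosome 5. Called bins with median-ratio scaling were 84, 1, 1 and 303 for mOPC 1FA, 2FA, ActD and mOPC NPM. With bins listed in either group they were 4670 for mOPC 1FA and 6617 for mOPC NPM, with no filter 501 for 2FA and 542 for ActD, in trans only 40 for 2FA, and without the segment of chromosome 5 they were 631 for mOPC NPM. Without 1 library the 2FA calls ranged from 53 to 117 genes and from 47 to 75 bins, the lowest bin count without mESC 1FA replicate 1.

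Over shared bins the trans share differed by 8.76 points for ActD, −7.16 between the NPM groups and −3.31 between cell types over both protocols, and the own-gene share by 1.28 for mOPC 1FA, −2.66 for ActD, 7.17 between the NPM groups and 4.22 between cell types. With each bin once the trans share differed by 0.132 for ActD, 1.10 for mESC NPM, 2.65 for mOPC NPM and 1.88 for NPM over both. With exact copies counted the own-gene share of mOPC 1FA differed by 0.0427. The 3′ share differed by 1.16 over shared bins for NPM over both cell types, and with each position once by 0.889 for mOPC 1FA and −0.385 for ActD. The gene share over shared bins differed by −0.173 for mOPC 1FA, 2.05 between the NPM groups, 7.63 for NPM over both and 0.938 between cell types, with each bin once by −0.000988 for mOPC 1FA, and without the ribosomal bin by −6.38 for mESC NPM. Without 1 library the 3′ share ranged from −3.69 to 3.08 for NPM over both, from −0.736 to 1.76 for 2FA and from −1.43 to 12.1 for mOPC NPM, and the gene share of mOPC 1FA from −0.0876 to 0.429.

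For single genes, 489 of 530 alternative values kept direction and side. Over shared bins with median-ratio scaling Cnot1 was at −0.12 in 2FA, and after ActD Piezo1 was at −0.072, Gm26917 at −0.54, Gm20417 at −0.58, CT010467.1 at −0.77 and Gm42418 at −0.81. With median-ratio scaling alone Gm42418 was at −0.035, Gse1 at −0.36 and Gm20388 at −0.89 after ActD (adjusted p = 0.017 for the last, limma). In mOPC NPM, Chst11 was at 1.70, Cdc42bpa at 1.28 and Kalrn at 1.93 over shared bins, and Chst11 at 0.15 and Kalrn at 0.36 with median-ratio scaling there. The window at 1501 to 1600 was at 0.016 between the NPM groups without mOPC NPM replicate 1. The planned use of the 3′ end of the RNA tag was not run, since the files give tag centres. The listed interactions are those past a threshold and hold no depth, so a bin or gene not listed may still have been contacted below it.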
